A study of Mus musculus with 12 samples.

Results

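Messenger RNA of 10 heat shock proteins was followed in the soleus muscle of aged mice: Hspa1a, Hspa1b, Hsph1, Hsp90aa1, Hspb1, Cryab, Hspb6, Hspb7, Hspb8 and Hspb3. The genes were chosen by name, as the heat-inducible large chaperones and the small heat shock proteins of muscle, and were found in the deposited table by their Ensembl identifiers. All 10 were present among the 30323 genes of the table, and all 10 were among the 10757 genes that averaged at least 1 TPM and were tested. TPM is the abundance of a gene's transcripts per transcript length, scaled to a fixed total per library.

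The soleus is a postural hind limb muscle rich in slow fibres. Male C57BL/6N mice from an aging colony, 24 months old and housed singly, had 8 weeks with a running wheel and were divided by accelerating rotarod performance into high functioning (HF) and low functioning (LF) mice. Some then had a laparotomy, an incision of the abdominal wall, and soleus was taken 5 days later, so the muscle sampled was not the tissue that was cut. The 12 libraries form 4 groups of 3: HF laparotomy, HF control, LF laparotomy and LF control. Age, sex, strain and wheel running were shared by all 4 groups, and the labels do not describe what was done to the controls. The labels do not state that the libraries came from separate mice, so a p-value here speaks only of the spread among the 12 libraries, which may be technical.

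Heat shock proteins bind unfolded or strained proteins. The small heat shock proteins form assemblies that hold such clients without using ATP, and the Hsp70 and Hsp90 machines refold them with ATP or hand them on for degradation. In muscle many of their clients are parts of the sarcomere, such as myosin, titin, desmin and filamin C. The inducible members are switched on by the transcription factor HSF1, which binds repeats of the 5 letters NGAAN in alternating directions, known as heat shock elements.

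The promoters are shown because such letters close to the start mark the classical inducible genes, and Hspb7, the member that differed most between HF and LF, is set beside them. RefSeq promoter windows (GRCm38.p6, 250 bases before to 50 bases after a start) were given for 8 of the 10 genes, in 10 windows, and Cryab and Hsp90aa1 had no entry. Each window was searched for GAANNTTC and TTCNNGAA, the 2 ways in which a pair of units can meet; each reads the same on both strands. At least 1 of the 2 was found in 15.1% of all 32851 promoter windows of the same length. Before the start, 6 of the 8 genes held at least 1 match, Hspb6 in only 1 of its 2 windows. Hspa1a and Hspa1b, whose promoters are nearly identical, count here as 2 genes. The share of all windows counts single windows and includes matches after the start, so it is not a like measure for this count. The stretches below run from base -130 to base -11 relative to the start, 5′ to 3′ on the gene's strand, with the matches in capitals.
Hspa1a, chr17:34972167-34972286, minus strand: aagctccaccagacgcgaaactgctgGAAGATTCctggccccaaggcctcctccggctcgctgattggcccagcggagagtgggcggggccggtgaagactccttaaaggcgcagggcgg
Hspb1, chr5:135887789-135887908, plus strand: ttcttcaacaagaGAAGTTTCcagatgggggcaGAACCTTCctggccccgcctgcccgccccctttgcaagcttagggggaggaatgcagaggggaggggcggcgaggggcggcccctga
Hsph1, chr5:149636326-149636445, minus strand: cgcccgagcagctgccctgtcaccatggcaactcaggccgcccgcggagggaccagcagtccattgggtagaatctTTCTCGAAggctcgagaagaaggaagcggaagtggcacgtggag
Hspb6, the second of its 2 windows, chr7:30553171-30553290, plus strand: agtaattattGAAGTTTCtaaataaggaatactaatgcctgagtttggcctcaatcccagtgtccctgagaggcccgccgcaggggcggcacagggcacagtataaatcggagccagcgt
Hspb7, chr4:141420649-141420768, plus strand: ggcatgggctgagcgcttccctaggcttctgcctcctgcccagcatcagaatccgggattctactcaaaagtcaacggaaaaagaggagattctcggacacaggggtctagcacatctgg

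The Hspa1a stretch holds 1 match, beginning at base -104, and the Hspa1b stretch (chr17:34959249-34959368, minus strand) is identical to it, with 0 differences. Over their whole 300-base windows the 2 promoters differed at 4 positions. Hspb1 holds 2 matches, beginning at bases -117 and -97. Hsph1 holds 1 match before the start in each of its 2 windows, at base -54 in the one shown, and its windows also hold a run of 3 units after the start, a form found in 0.603% of all windows. Hspb3 has 1 match farther out, at base -224. Hspb8 has a match only after its start, the first window of Hspb6 has none, and the Hspb7 window has none. A match is a string of letters and was not measured as a binding site.

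Levels spanned more than 2 orders of magnitude, with 4 small heat shock genes, Hspb6, Hspb7, Hspb1 and Hspb8, at the top of the order. On the TPM scale, which is per transcript length, means over the 12 libraries ran from 2366 TPM for Hspb6 to 7.14 TPM for Hspa1b. Hspb6, known as Hsp20 and a substrate of cyclic nucleotide kinases, was followed by Hspb7, a small heat shock protein of heart and skeletal muscle that binds filamin C, at 1301 TPM. Their ranges over the 12 libraries did not overlap. Hspb1, known as Hsp25 in mice and an actin-associated chaperone, averaged 286.5 TPM. Hspb8, the partner of Bag3 in chaperone-assisted selective autophagy, averaged 245.7 TPM. These 2 overlapped, from 188.0 to 349.4 TPM for Hspb1 and from 177.9 to 372.0 TPM for Hspb8.

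Lower in the order stood Hspb3, a muscle protein that assembles with Hspb2, at 57.8 TPM, and Hsp90aa1, the inducible cytosolic Hsp90, at 38.7 TPM. Cryab, which encodes αB-crystallin, the chaperone of desmin and titin, averaged 19.1 TPM. The inducible Hsp70 genes Hspa1a and Hspa1b averaged 11.5 and 7.14 TPM. Hsph1, an Hsp110 protein that exchanges the nucleotide of Hsp70, averaged 7.60 TPM. The ranges of Hspb3 and Hsp90aa1 overlapped, as did those of each neighbouring pair from Cryab down to Hspa1b in this order. All 10 together made up 0.392% to 0.551% of the summed TPM of the table in a library.

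Cryab stood below Hspb2, a small heat shock gene on the opposite strand whose exons overlap its own and which averaged 128 TPM. The library kit marks strand. Whether reads were assigned by strand is not stated by the labels, and the levels of both genes are uncertain. Between 3.72% and 4.35% of the full TPM total lay outside the table, and whether Cryab transcripts were part of it was not tested. Hspa1a is also overlapped on the opposite strand by Gm20481, at 0.425 TPM, and Hspb6 by Lin37, at 15.0 TPM, and Proser3, at 1.01 TPM.

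Hspa1a (chr17:34969190-34972156) and Hspa1b (chr17:34956436-34959238) are neighbouring copies on the minus strand. Their coding sequences in the GENCODE M21 annotation (GRCm38) were 99.4% identical, with 8 mismatches when aligned. Of all 31-base windows of the transcript, 34.6% for Hspa1a and 32% for Hspa1b occurred in no other gene, so the division of reads between the pair is uncertain and their summed TPM is given beside them. Hspa1a took between 57.0% and 65.0% of that sum in every library. For Hspb1 47.7% of windows were unique, most others being shared with Hsp25-ps1, at 0.0623 TPM, and for Hsp90aa1 48.6%, shared most with Gm12346, at 0.15 TPM. For the other 6 genes at least 98.0% were unique.

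**Figure D1:**
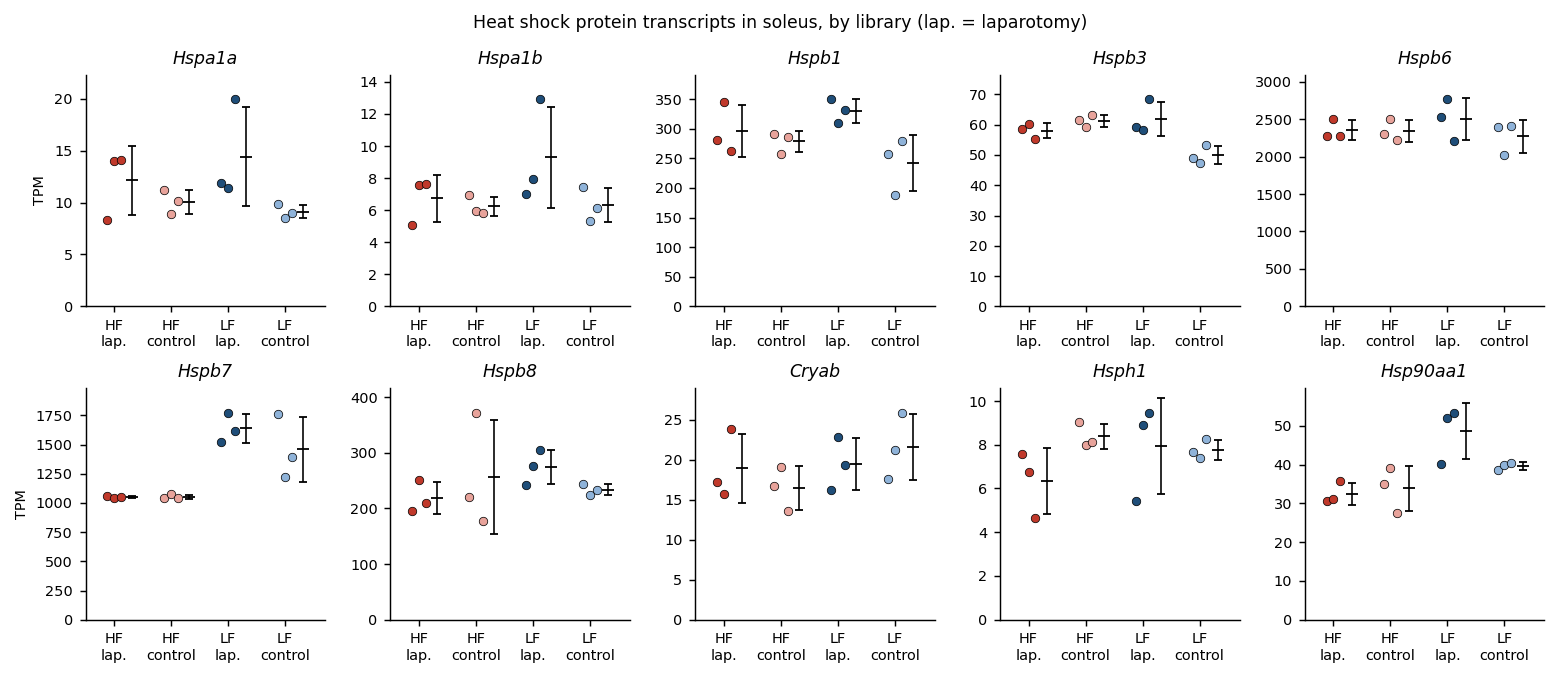
TPM (y axis, from 0) of the 10 genes in each of the 12 libraries, in the 4 groups on the x axis; points are libraries, and the bar beside them is the mean with its SD (n = 3). Hspb7 lies between 1042 and 1074 TPM in the 6 HF libraries and between 1220 and 1774 TPM in the 6 LF libraries.

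The first comparison asked how the genes differ between HF and LF muscle. Hspb7 and Hsp90aa1 were lower in HF than in LF muscle, and none of the other 8 genes passed the test on the deposited scale. Over all tested genes 41.3% passed, 6.03% higher and 35.3% lower in HF, so 2 of 10 members is a lower share than that of all genes. Differences are given on the log2(TPM + 1) scale minus the median difference of all tested genes, which was -0.15, while the p-values test the deposited values. Averaged over the treatments, the 10 members had a median of 0.04 after this subtraction.

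Hspb7 (chr4:141420779-141425311) was at 1057, 1042 and 1052 TPM in HF laparotomy libraries and at 1044, 1074 and 1045 TPM in HF control libraries. In LF laparotomy libraries it was at 1521, 1774 and 1621 TPM, and in LF control libraries at 1761, 1220 and 1398 TPM. Every HF library was below every LF library, and the share of all genes with this full separation was not computed. By a weaker criterion, HF libraries below LF libraries within each treatment, 22.7% of all tested genes were separated in this direction. On the deposited scale the coefficient of variation was 1.13% over the 6 HF libraries and 13.9% over the 6 LF libraries; after scaling by size factors it was 7.52% in HF and 14.9% in LF. The difference of HF against LF averaged over the treatments was -0.40 ± 0.08 (SE, limma, Benjamini-Hochberg adjusted p = 0.000701). It stayed past the threshold under each of 24 alternatives, with values from -0.54 to -0.33. In a bulk muscle sample, fewer cells of a type and less RNA per cell cannot be told apart.

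Within treatments, Hspb7 averaged 1050 ± 7 TPM in HF laparotomy and 1639 ± 128 TPM in LF laparotomy libraries (SD, n = 3 each), a difference of -0.45 ± 0.12 (limma, adjusted p = 0.00544). Among laparotomy libraries 26% of all tested genes passed. In controls it averaged 1055 ± 17 TPM in HF and 1460 ± 276 TPM in LF, a difference of -0.34 ± 0.12 (limma, adjusted p = 0.0340), where 10.5% of all tested genes passed. Both differences were without overlap between HF and LF libraries, as in 36.2% of all tested genes after laparotomy and 31.3% in controls. This control difference did not pass with median-of-ratios size factors (adjusted p = 0.109) or without a filter on low values (0.0891). Nor did it pass without HF laparotomy library 2 (0.0527), HF control library 1 (0.0971) or 3 (0.108), or LF control library 1 (0.0815), 2 (0.0696) or 3 (0.0890). Without LF control library 1, the highest of its group, the difference was -0.20.

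The scale of a library cancels in ratios of members, which were computed after their values had been seen and are given without a test. Hspb7 stood at 0.416 to 0.472 of the Hspb6 level in the 6 HF libraries and at 0.580 to 0.737 of it in the 6 LF libraries. Set against Hspb3, Hspb7 was 16.6 to 19.0 times as high in HF and 23.7 to 36.1 times as high in LF libraries. Neither ratio overlapped between HF and LF. How many other genes would separate when divided by Hspb6 or Hspb3 was not computed. Both denominators had differences of HF against LF above the median of all genes, given below, so the ratios also carry those. Hspb3 over Hspb6 overlapped, at 0.0237 to 0.0285 in HF and 0.0204 to 0.0310 in LF libraries. In the summed TPM of the 10 genes, Hspb7 accounted for 24.3% to 27.1% in HF and 31.3% to 36.8% in LF libraries, and Hspb6 for 57.5% to 58.6% in HF and 47.5% to 54.0% in LF. After scaling by size factors, Hspb7 itself ran from 1021 to 1263 in HF and from 1151 to 1674 in LF libraries. This overlap was between HF laparotomy and LF control libraries. Within treatments the scaled values did not overlap. They were 1113 to 1263 in HF and 1382 to 1674 in LF laparotomy libraries, and 1021 to 1142 in HF and 1151 to 1620 in LF control libraries.

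**Figure D2:**
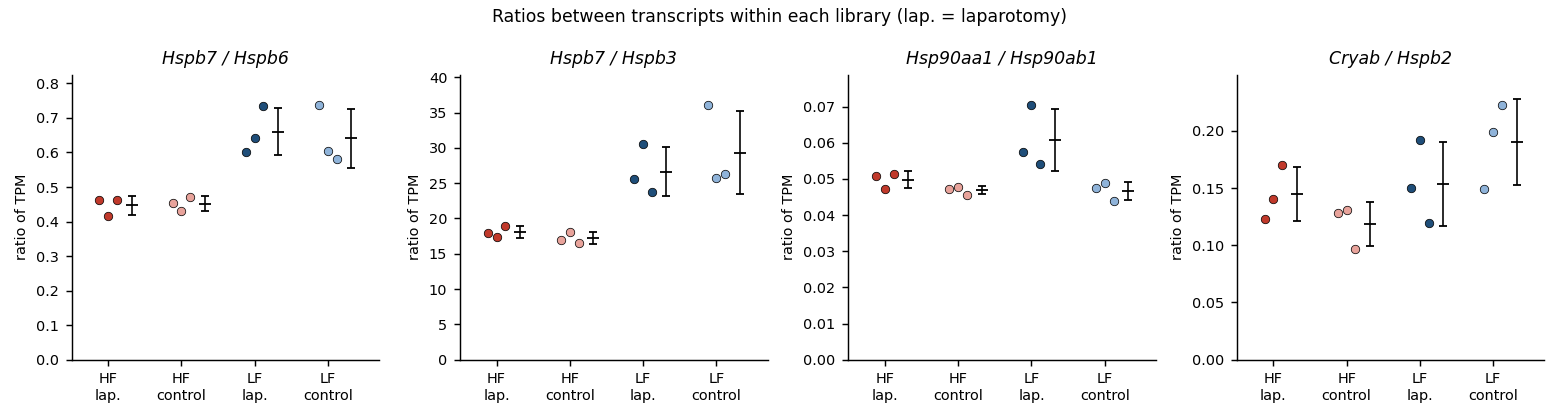
Ratio of TPM within a library (y axis, from 0) for Hspb7 over Hspb6, Hspb7 over Hspb3, Hsp90aa1 over Hsp90ab1 and Cryab over Hspb2, by group; points are libraries, bars the mean with SD (n = 3). The 2 Hspb7 ratios are lower in all 6 HF libraries than in any LF library, whereas the other 2 ratios overlap between HF and LF.

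Hsp90aa1 (chr12:110690605-110702728, minus strand) was at 30.5, 31.1 and 35.7 TPM in HF laparotomy libraries and at 34.9, 39.1 and 27.6 TPM in HF control libraries. It was at 40.3, 52.1 and 53.4 TPM in LF laparotomy libraries, and at 38.7, 39.9 and 40.5 TPM in LF control libraries. On the deposited scale 1 HF control library, at 39.1 TPM, reached into the LF range, and the other 5 HF libraries were below all LF libraries. After scaling by size factors, Hsp90aa1 ran from 30.15 to 37.78 in HF and from 35.57 to 49.13 in LF libraries. Several HF libraries then reached into the LF range, but none reached the LF laparotomy libraries, which lay at 42.5 or above. The difference of HF against LF averaged over the treatments was -0.25 ± 0.10 (SE, limma, adjusted p = 0.00621), and it passed under each of 24 alternatives.

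After laparotomy, Hsp90aa1 averaged 32.5 ± 2.8 TPM in HF and 48.6 ± 7.2 TPM in LF libraries, without overlap between the groups. The difference was -0.37 ± 0.14 (limma, adjusted p = 0.0134). It did not pass without HF laparotomy library 1 (adjusted p = 0.0550) or 2 (0.0530), or LF laparotomy library 2 (0.0566) or 3 (0.0525). In controls the means were 33.9 ± 5.8 TPM in HF and 39.7 ± 0.9 TPM in LF, with a difference of -0.13 ± 0.14 that did not pass (adjusted p = 0.248). Whether the HF against LF difference itself varied with treatment is the interaction given further on. Relative to Hsp90ab1, the constitutive cytosolic Hsp90, Hsp90aa1 stood at 0.0456 to 0.0515 in HF and at 0.0440 to 0.0704 in LF libraries.

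Hspb3 (chr13:113662896-113663676, minus strand) was at 58.7, 60.1 and 55.4 TPM in HF laparotomy libraries, 61.6, 59.2 and 63.2 TPM in HF control libraries, 59.3, 58.2 and 68.4 TPM in LF laparotomy libraries and 48.8, 47.5 and 53.2 TPM in LF control libraries. LF control libraries were the low group, below all 9 others. In controls the HF libraries lay above the LF libraries without overlap, as 9.11% of all tested genes did, with a difference of 0.40 ± 0.09 that did not pass (limma, adjusted p = 0.0563). This control difference passed under 7 of 25 alternatives: a filter at 5 TPM (adjusted p = 0.0467), size factors (0.0112), quantile normalization (0.00837), rescaled TPM (0.0156), array weights (0.0130), and without LF laparotomy library 1 (0.0359) or 3 (0.0227). Averaged over the treatments the difference of HF against LF was 0.25 ± 0.07 and did not pass on the deposited scale (adjusted p = 0.220). It passed with size factors (0.00465), array weights (0.0148), quantile normalization (0.00365) and after rescaling without the genes of mitochondrial DNA and the 10 most abundant ones (0.0148). After removal of a trend with gene length and GC content it was 0.06 (adjusted p = 0.412).

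The other 7 genes gave differences of HF against LF, averaged over the treatments, between -0.06 for Cryab and 0.18 for Hspb1, with adjusted p from 0.213 upwards (limma). Hspb6 had the lowest coefficient of variation over the 12 libraries, 8.2%. It was at 2216 to 2508 TPM in HF and 2016 to 2764 TPM in LF libraries, and its difference was 0.13 ± 0.08. Hspb8 ranged from 178 to 372 TPM in HF and from 223 to 304 TPM in LF libraries. Its highest value, in HF control library 2, was the top of all 12, and without that library the difference was -0.11 (adjusted p = 0.0298), against 0.02 ± 0.15 with it. Cryab ran from 13.6 to 23.8 TPM in HF and from 16.3 to 25.9 TPM in LF libraries, with a difference of -0.06 ± 0.13. With array weights Cryab passed at -0.23 (adjusted p = 0.00897). The summed Hsp70 pair gave 0.04 ± 0.15 (adjusted p = 0.571).

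**Figure D3:**
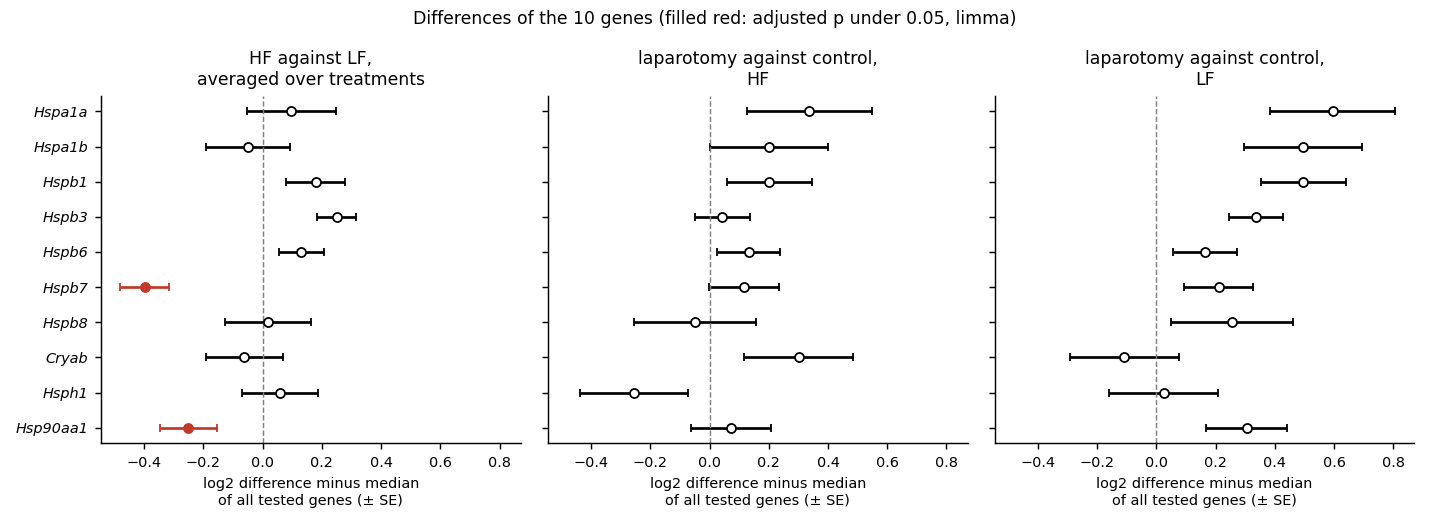
Log2 difference minus the median of all tested genes (x axis) for the 10 genes (rows), with its SE, in 3 panels: HF against LF averaged over the treatments, laparotomy against control in HF, and laparotomy against control in LF. Hspb7 at -0.40 and Hsp90aa1 at -0.25 passed in the first panel; no gene passed in the other 2.

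The second comparison asked what laparotomy changed 5 days later. No member passed the test, in HF, in LF or averaged, and neither did any of the 10757 tested genes (limma, 0% at adjusted p under 0.05). At an unadjusted p under 0.05 there were 665 genes in HF, 291 in LF and 747 averaged, which is 6.18%, 2.71% and 6.94% of those tested. The members' values are therefore a description. The median difference of the 10 members, after subtraction of the median of all tested genes, was 0.12 in HF and 0.28 in LF.

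In LF muscle, 4 members had an unadjusted p under 0.05, all with higher values after laparotomy. The adjusted p of each was 0.99954 (limma). Over all tested genes 2.71% had such an unadjusted p in either direction. Hspa1a and Hspa1b are among the 4 members and share most of their transcript windows, so they are not separate observations. Hspb1 (chr5:135887919-135889563) was at 349, 309 and 331 TPM in LF laparotomy libraries, against 257, 188 and 278 TPM in LF control libraries. The groups did not overlap, and its difference was 0.50 ± 0.14 (unadjusted p = 0.00601). Hspb3, whose values are given above, also did not overlap and had a difference of 0.34 ± 0.09 (unadjusted p = 0.00545). Libraries also differed in Myh4 over Myh7, a fast muscle ratio. On a log2 scale it was -4.64 in HF laparotomy library 2, -5.29 in LF laparotomy library 1 and -6.60 in LF control library 3. All other libraries lay at -8.30 or below, and those named held the highest Hspb1 value of their group. Over 25 alternatives, which include this ratio as a covariate, the Hspb1 difference in LF ran from 0.34 to 0.60.

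Hspa1a was at 11.9, 11.4 and 20.0 TPM in LF laparotomy libraries, against 9.82, 8.54 and 9.04 TPM in LF control libraries. LF laparotomy library 3 was the high one, and the groups did not overlap. That library had the lowest share of TPM from mitochondrially encoded genes, 26.4%, and LF control library 2 had the highest, 39.7%. After scaling by size factors, Hspa1a ran from 10.79 to 17.01 in LF laparotomy and from 8.06 to 9.035 in LF control libraries. Its difference was 0.60 ± 0.21 (limma, unadjusted p = 0.0188), and 0.42 without LF laparotomy library 3. Hspa1b was at 7.02, 7.95 and 12.9 TPM in LF laparotomy libraries, against 7.42, 5.31 and 6.16 TPM in LF control libraries, with the same library high and with an overlap. Its difference was 0.49 ± 0.20 (limma, unadjusted p = 0.0366), and 0.32 without that library. On the deposited scale, non-overlap with higher values after laparotomy, as in Hspb1, Hspb3 and Hspa1a, was seen in 2.54% of all tested genes. After scaling by size factors, Hspa1b ran from 7.404 to 11.01 in LF laparotomy and from 5.007 to 6.825 in LF control libraries, without overlap. Scaled Hsp90aa1 and Hspb8 did not overlap either, whereas Hspb6, Hspb7, Cryab and Hsph1 did. The share of all genes without overlap was not computed on that scale.

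The remaining members in LF ran from -0.11 ± 0.18 for Cryab to 0.30 ± 0.14 for Hsp90aa1. Hspb8 was at 243, 276 and 304 TPM in LF laparotomy libraries and at 243, 223 and 233 TPM in LF control libraries.

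In HF muscle no member had an unadjusted p under 0.05. Hspb1 was at 281, 345 and 263 TPM in HF laparotomy libraries, against 291, 258 and 287 TPM in HF control libraries. The highest and the second lowest of these 6 values were both laparotomy libraries, and the difference was 0.20 ± 0.14 (limma, adjusted p = 0.803). Hspa1a was at 8.29, 14.0 and 14.1 TPM in HF laparotomy libraries, against 11.2, 8.86 and 10.2 TPM in HF control libraries. Both its lowest and its 2 highest HF values came from laparotomy libraries, and its difference was 0.34 ± 0.21 (limma, adjusted p = 0.689). Hspa1b behaved alike, at 5.05, 7.55 and 7.62 TPM in HF laparotomy libraries against 6.93, 5.96 and 5.83 TPM in HF control libraries.

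Hsph1 (chr5:149614287-149636376, minus strand) was at 7.59, 6.73 and 4.67 TPM in HF laparotomy libraries, against 9.04, 7.97 and 8.14 TPM in HF control libraries. It was the one member whose HF groups did not overlap, with lower values after laparotomy, as in 16.6% of all tested genes; after scaling by size factors the groups overlapped. Its difference was -0.26 ± 0.18 (limma, unadjusted p = 0.0608, adjusted p = 0.655). Without HF laparotomy library 3 it was -0.04, and without HF laparotomy library 1 -0.41. In LF muscle Hsph1 was at 5.41, 8.91 and 9.47 TPM in laparotomy libraries, against 7.65, 7.40 and 8.26 TPM in controls, with a difference of 0.02 ± 0.18. Cryab was at 17.3, 15.7 and 23.8 TPM in HF laparotomy libraries and at 16.7, 19.1 and 13.6 TPM in HF control libraries, overlapping, with a difference of 0.30 ± 0.18.

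Averaged over HF and LF, laparotomy differences were 0.47 ± 0.15 for Hspa1a (unadjusted p = 0.0211), 0.35 ± 0.10 for Hspb1 (0.0176) and 0.43 ± 0.15 for the summed Hsp70 pair (0.0309). The limma adjusted p of all 3 was 0.683. The interaction, the laparotomy difference in HF minus that in LF, was called for 0 of 10757 genes, with 331 (3.08%) at an unadjusted p under 0.05. Of the members, Hspb3 was among those, at -0.29 ± 0.13 (limma, unadjusted p = 0.0113, adjusted p = 0.99979). For Hsp90aa1 it was -0.23 ± 0.19 (unadjusted p = 0.118) and for Hspb7 -0.10 ± 0.17 (unadjusted p = 0.283).

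Other genes of the chaperone network were counted from 6 lists. For laparotomy 0 of their members passed in any comparison. For HF against LF averaged over the treatments, most of the genes that passed were lower in HF. The counts below stand beside 6.03% higher and 35.3% lower among all tested genes as deposited, and 19.9% higher and 20.6% lower with size factors. Of all calls 14.6% were higher as deposited, 49.2% with size factors and 46.0% with quantile normalization.

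Among the relatives of Hsp70 and Hsp110, 0 of 7 tested genes were higher and 4 were lower in HF, with a median difference of -0.14 after subtraction of the median of all genes. Hspa4l, a relative of Hsph1, had the smallest p. It ran from 0.581 to 1.43 TPM in HF and from 1.60 to 2.06 TPM in LF libraries, with a difference of -0.51 ± 0.09 (limma, adjusted p = 0.000437). Hspa13, an Hsp70 relative, was at -0.25 ± 0.10 (limma, adjusted p = 0.00892). Hspa8, the constitutive Hsp70, ran from 813.5 to 1079 TPM in HF and from 976 to 1326 TPM in LF libraries, with a difference of -0.15 ± 0.09 (limma, adjusted p = 0.0241). With size factors 1 gene of this list was higher and 2 were lower.

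Of the 19 co-chaperones and partners that respond to HSF1 or work with Hsp70 and Hsp90, 1 was higher and 10 were lower in HF, with a median of -0.13 (all genes 6.03% higher and 35.3% lower). Stip1, the adaptor between Hsp70 and Hsp90, ran from 29.9 to 39.5 TPM in HF and from 40.3 to 53.0 TPM in LF libraries, without overlap, with a difference of -0.30 ± 0.08 (limma, adjusted p = 0.00133). St13, an Hsp70-interacting protein, was at -0.50 ± 0.12 (limma, adjusted p = 0.00153). The gene that was higher was Bag1, a nucleotide exchange factor of Hsp70, at 0.45 ± 0.09 (adjusted p = 0.0129); it is named because it was the exception. With size factors 4 were higher and 5 were lower. Dnajb1, an Hsp40 protein and a classical HSF1 target, did not pass, at 0.17 ± 0.13 (adjusted p = 0.911).

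Of the 15 genes of chaperone-assisted selective autophagy and of Z-disc or filament clients, 0 were higher and 11 were lower in HF, with a median of -0.19 (all genes 6.03% higher and 35.3% lower). Flnc, which encodes filamin C, ran from 131.5 to 158 TPM in HF and from 186.5 to 273 TPM in LF libraries, without overlap, with a difference of -0.41 ± 0.07 (limma, adjusted p = 0.000386). Smyd1, a muscle methyltransferase involved in myosin assembly, was at -0.46 ± 0.10 (adjusted p = 0.000847) and Actn2, the Z-disc α-actinin, at -0.33 ± 0.08 (adjusted p = 0.000903). Bag3, the partner of Hspb8, ran from 90.8 to 102 TPM in HF and from 105 to 150.0 TPM in LF libraries, with a difference of -0.17 ± 0.08 (adjusted p = 0.00970). With size factors 3 genes of the list were higher and 6 were lower.

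Of 14 chaperones of the endoplasmic reticulum and mitochondria, 0 were higher and 8 lower in HF, with a median of -0.17, and with size factors 2 were higher and 5 lower. The 3 with the smallest p were mitochondrial: Hspa9 at -0.37 ± 0.08 (limma, adjusted p = 0.000820), Hspd1 at -0.30 ± 0.09 (0.00223) and Trap1 at -0.28 ± 0.09 (0.00230). Of 4 tested heat shock factors and modulators, 1 was lower, Hsf2, at -0.24 ± 0.08 (limma, adjusted p = 0.00339). With size factors 2 were higher, Hsf4 at 0.33 (adjusted p = 0.00631) and Hsbp1 at 0.14 (0.0290), and Hsf2 was again lower at -0.22 (0.0214). Hsf1 itself had a median of 17.9 TPM in HF and 20.2 TPM in LF libraries, with overlap and a difference of 0.00 ± 0.08. Neither of the other 2 tested genes with an Hspb symbol passed as deposited: Hspb2 was at 0.30 ± 0.10 (adjusted p = 0.230) and Hspb11 at 0.15 ± 0.09 (adjusted p = 0.988). With size factors Hspb2 was higher, at 0.34 (adjusted p = 0.00577).

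**Figure D4:**
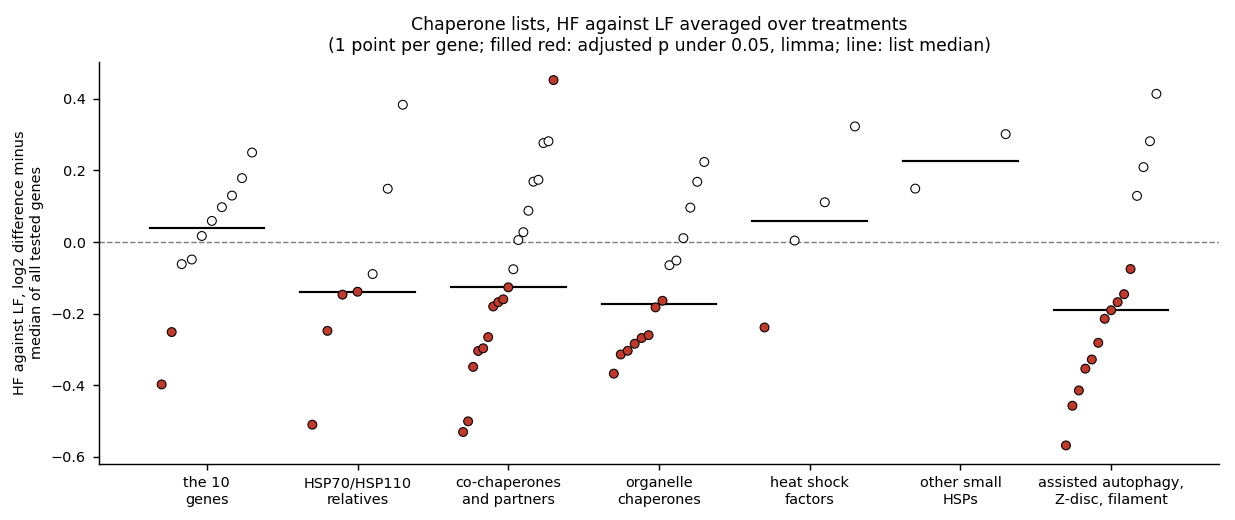
Difference of HF against LF averaged over the treatments, minus the median of all tested genes (y axis, log2), for the 10 genes and 6 chaperone lists (x axis); 1 point per gene, filled red where the adjusted p was under 0.05, with a line at the list median. The median is 0.04 for the 10 genes, -0.14 for the Hsp70 and Hsp110 relatives and -0.19 for the autophagy and Z-disc genes.

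The members did not vary as 1 group from library to library. As a description over deviations of log2(TPM + 1) from the group means in the 12 libraries, which share their scale within a library, Hspa1a and Hspa1b had a Pearson r of 0.93, and they also share sequence. Cryab and Hsp90aa1 had an r of 0.78, and Hspb8 and Hsp90aa1 an r of 0.71. Hspb1 and Cryab had an r of -0.36. The genes most like the summed Hsp70 pair by this measure were Caskin2 (r = 0.956), Slc2a1 (0.951) and Luc7l3 (0.944). Those most like Cryab were Atf7ip (0.935), Zfp46 (0.935) and Hbp1 (0.934), and those most like Hsp90aa1 were Ube2q2 (0.989), Tor1b (0.983) and Rbm26 (0.983).

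The libraries summed to 956473 to 962830 TPM, the 13 mitochondrially encoded genes took 26.4% to 39.7% of the total, and 16993 to 18148 genes were above 0. All 7 slow fibre markers were detected, as soleus should show, with summed levels of 36406 to 45208 TPM in HF and 30321 to 40006 TPM in LF libraries. The marker counts for HF against LF stand beside 6.03% higher and 35.3% lower among all tested genes as deposited. With size factors those shares were 19.9% and 20.6%, and the markers were not counted on that scale. Of the slow fibre markers 2 were higher and 1 was lower. The 9 fast fibre markers, of which 0 were higher and 2 lower, summed to 25712 to 40035 TPM in HF and 30992 to 41379 TPM in LF libraries. Markers of Schwann cells and nerve were higher for 3 of 4 tested, summing to 37.0 to 124 TPM in HF and 22.8 to 31.6 TPM in LF libraries, with none at 0. Of 8 endothelial markers 2 were higher, with sums of 201 to 277 TPM in HF and 167 to 227 TPM in LF libraries, and none at 0. Of 3 adipocyte markers tested 1 was higher, the list summing to 355 to 543 TPM in HF and 280 to 374 TPM in LF libraries, with Plin1 below 0.1 TPM. Smooth muscle and pericyte markers, of which 0 of 6 tested were higher and 2 lower, summed to 227 to 282 TPM in HF and 251 to 297 TPM in LF libraries, with none at 0. Of 6 fibroadipogenic markers 1 was higher, with sums of 210 to 374 TPM in HF and 182 to 339 TPM in LF libraries, and none at 0. No tested marker of macrophages, neutrophils, satellite cells, erythroid cells or tendon passed (limma), and none of the 4 lymphocyte markers reached the filter. The part of these differences in those of Hspb7 and Hsp90aa1 was not tested.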

How the data were processed

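Gene-level TPM of 12 soleus libraries, deposited by the authors in 1 table, were analysed. Per the submitters' processing notes, kallisto, DESeq2 and GRCm38 were used, in roles and versions that are not given. Per the labels' protocols, QIAzol and an RNeasy column gave the RNA, and stranded libraries followed polyA selection. Read depth is unknown, so no counting interval was computed. Of the 30323 identifiers, 29857 matched a GENCODE M21 (GRCm38) symbol. Genes averaging 1 TPM or more were tested on log2(TPM + 1), a scale that understates changes of low genes, with limma 3.58.1 in R 4.3.3 (mean-variance trend, 4 group means, 8 residual degrees of freedom, two-sided). P-values were adjusted by Benjamini and Hochberg over 10757 genes in each of 7 contrasts, at a threshold of 0.05. A permutation of 3 against 3 libraries, as in the contrasts between single groups, cannot go below p = 0.10. That limit does not hold for the averaged contrasts, but single genes were not permuted there either. The steps were tested on simulated data.

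Members, lists and ratios were chosen with earlier results of these data known. All members were named, with up to 3 genes of each list by smallest p past the threshold in the averaged contrasts. One gene that this rule names is not reported here. Genes most like the Hsp70 pair, Cryab and Hsp90aa1 were ranked by Pearson r among genes of at least 5 TPM. Hsf1, Hsf4, Hsbp1, Dnajb1, Bag1, Bag3, Hspb2, Hspb11 and Hsp90ab1 were named after their values had been seen. Alternatives were other pseudocounts (0.5, 0.1), other filters (none, or 5 TPM), size factors, quantile normalization, rescaling without the 13 genes of mitochondrial DNA and the 10 most abundant ones, array weights, robust eBayes, a fast muscle covariate (Myh4 over Myh7), the compared groups alone, the summed Hsp70 pair, and each library left out. Removal of a length and GC trend was added after seeing the data.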

Additional observations from a re-analysis of the deposited data

How the results depend on the processing

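No paired analysis was run because the labels name no pairs of libraries between groups. The labels also give no replicate numbers, and the library numbers used here follow the order of the samples within each group. Of the member comparisons under all alternatives, 1716 kept their direction and side of the threshold, 67 that did not pass changed sign, 14 gained and 12 lost the call, and 2 reversed: Cryab for HF against LF after laparotomy with array weights (-0.17, adjusted p = 0.0311) and Hspb8 for HF against LF averaged without HF control library 2 (-0.11, adjusted p = 0.0298), with a range of -0.11 to 0.11 over the libraries left out. For these the cause was not tested. Counts of called genes for HF against LF after laparotomy, 2796 as reported, were 1489 without a filter, 6036 with array weights, 1362 with the compared groups alone and 1730 once a length and GC trend was taken out, an alternative chosen after seeing the data. In controls, 1127 as reported, they were 130 without a filter, 3127 with array weights, 1934 with size factors, 2082 with quantile normalization and 2238 with rescaled TPM. For laparotomy, 0 as reported, counts were 1 without a filter and 3 with the compared groups alone in HF. In LF they were 5 and 1, and 2 with array weights. Averaged they were 2 without a filter and 2 with array weights, and for the interaction 2 and 1. Leaving out 1 library each gave 1048 to 4157 after laparotomy, 2 to 2080 in controls (2 without LF control library 2), 3627 to 5100 averaged over the treatments, 0 to 1 for laparotomy in HF, 0 to 1 in LF, 0 to 2 averaged and 0 to 1 for the interaction. The share of calls that were higher in HF was 5.76% after laparotomy and 23.2% in controls as deposited, against 46.5% and 50.4% with size factors. TPM hold no read depth, which limits what can be said of the low genes Hspa1a, Hspa1b and Hsph1.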
